A study of Mus musculus with 4 samples.

Results

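Elastic fibres give skin, lung and arteries their recoil. Their core is elastin, which fibroblasts and smooth muscle cells secrete as soluble tropoelastin, and which is laid down on a scaffold of fibrillin microfibrils with the help of fibulins and microfibril-associated proteins before lysyl oxidases cross-link it through its lysines. The expression of 10 genes of this system was followed in mouse embryonic fibroblasts (MEFs) with and without induction of Mitf, the melanocyte lineage master regulator. The genes were Eln for the core, the fibrillins Fbn1 and Fbn2, the microfibril-associated Mfap4 and Mfap5, the fibulins Fbln1, Fbln2 and Fbln5, and the cross-linking enzymes Lox and Loxl1. They are 10 of the 22823 genes with listed exons, and they held 272 of the 226463 exons assigned to genes. The list was selected on the levels and fold changes that these libraries had given, above all the fall of Eln from Dox (-) to Dox (+), so the changes of its genes are given as a description.

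RNA-seq was done on 1 library for each of 4 conditions, and 3 libraries were analysed here. MEF was RNA of wild-type fibroblasts at passage 3. Dox (-) and Dox (+) were Mitf knock-in MEFs at passage 5, without and with doxycycline (Dox) for 6 days. Both knock-in libraries carried the M2 reverse tetracycline transactivator at ROSA26, an mCherry transgene and the M isoform of Mitf under a Dox-responsive element placed downstream of Col1a1. The knock-in cells came from 1 correctly targeted embryonic stem cell clone injected into host blastocysts, and the cultures were made from chimeric embryos, whose host cells do not carry the transgenes. The mCherry and puromycin resistance markers allow the transgenic cells to be purified from such cultures, and the share of host cells left in these libraries was not tested. The melanocyte library (PMel) was not analysed here. MEF therefore differed from the knock-in libraries in genotype and passage, and these cannot be told apart.

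Values were RPKM per exon, that is, reads on the exon scaled by its length in kb and by the aligned reads of the library, and the level of a gene was that of its highest exon. The depth recovered from the values was 45000000 reads for MEF and Dox (-) and 44000000 for Dox (+). With 1 library per condition there was no replicate check. The 95% intervals below are exact intervals on reads of the same exon, and for Eln also of all its exons. They cover counting error only. A change was called where it passed 4-fold and either library of the pair exceeded 10 RPKM. Log2 fold changes were taken after adding 1 RPKM, which understates the change of low genes. Mitf itself stood at 1.52 RPKM in MEF, 30.8 RPKM in Dox (-) and 1544 RPKM in Dox (+). The induced library was thus the highest, as its label gives. The labels do not give the 20.2-fold higher Mitf level in Dox (-) than in MEF, and its source was not tested. Fewer cells of a type and less RNA per cell cannot be told apart in such bulk libraries.

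The sequences of the exons show how these proteins are built. Of the 35 fully coding exons of Eln, every one had a length that is a multiple of 3. In 8 of them the letters GTNCCNGGN were found, which in frame code for valine-proline-glycine, a unit of the elastic repeats, 20 times in all. The letters GCNGCNAAA or GCNGCNAAG, alanine-alanine-lysine in frame, were found in 10, and 1 exon held both kinds. Both kinds were searched in every frame of the coding strand and are in capitals below. Exons 8 and 27 are shown as the exons with most repeats and exon 20 as a lysine-rich exon. Coordinates are mm10 and exons are numbered from 5′ to 3′ among those listed.
Eln exon 8, chr5:134729271-134729432, minus strand: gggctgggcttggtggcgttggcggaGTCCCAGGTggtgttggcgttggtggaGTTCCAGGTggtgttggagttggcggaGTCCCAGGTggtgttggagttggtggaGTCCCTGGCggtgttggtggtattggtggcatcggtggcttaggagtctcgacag
Eln exon 20, chr5:134716992-134717045, minus strand: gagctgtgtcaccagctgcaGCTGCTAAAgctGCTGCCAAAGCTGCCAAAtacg
Eln exon 27, chr5:134711062-134711220, minus strand: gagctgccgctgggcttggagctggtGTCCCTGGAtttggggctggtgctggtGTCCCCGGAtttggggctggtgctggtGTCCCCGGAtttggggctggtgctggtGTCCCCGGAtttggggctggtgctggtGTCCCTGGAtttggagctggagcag

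The fibrillins and fibulins are instead strings of calcium-binding EGF-like modules, many of them coded by an exon each. Such exons tend to open with the letters ANNTNNANGANTG, since the module starts with a run of acidic residues before its first cysteine. Over all protein coding genes of GENCODE M21, 301 of 180330 fully coding exons opened with them on the coding strand, or 0.167%. Of these, 93 belonged to the elastic fibre genes, with 36 of 63 such exons in Fbn1, 35 of 63 in Fbn2, 8 of 15 in Fbln1, 8 of 15 in Fbln2 and 6 of 9 in Fbln5. Eln, Mfap4, Mfap5, Lox and Loxl1 had 0. An exon from each of 3 genes is shown with the opening letters in capitals. Exon 18 of Fbln2, which does not open with them, is also shown. Its level stood below that of its neighbours, though it was not the only such Fbln2 exon.
Fbn1 exon 54, chr2:125320863-125320979, minus strand: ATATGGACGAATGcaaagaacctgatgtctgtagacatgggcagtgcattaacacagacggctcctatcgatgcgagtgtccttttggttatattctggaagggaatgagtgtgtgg
Fbln1 exon 8, chr15:85231417-85231554, plus strand: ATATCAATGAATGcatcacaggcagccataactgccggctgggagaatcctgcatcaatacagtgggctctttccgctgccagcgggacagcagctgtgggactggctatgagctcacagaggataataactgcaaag
Fbln5 exon 6, chr12:101768393-101768509, minus strand: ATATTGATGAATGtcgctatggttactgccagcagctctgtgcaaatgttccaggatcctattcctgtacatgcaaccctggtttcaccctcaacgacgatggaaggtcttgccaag
Fbln2 exon 18, chr6:91259630-91259770, plus strand: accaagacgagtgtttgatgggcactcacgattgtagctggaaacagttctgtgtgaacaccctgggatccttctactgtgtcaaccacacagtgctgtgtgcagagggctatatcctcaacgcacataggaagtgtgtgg

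The elastin gene had the widest range of the 10. Eln, on the minus strand of chromosome 5 from 134702593 to 134747323, stood at 20 RPKM in MEF, 1230 RPKM in Dox (-) and 7.58 RPKM in Dox (+). The untreated knock-in cells were far above both other libraries. From Dox (-) to Dox (+) the level was 162-fold lower, a log2 fold change of -7.16, and only 3 of 13300 genes lay lower. On the same exon in both libraries it was 232-fold lower, with an interval of 112 to 578 and 7 reads in Dox (+). Over the reads of all its exons it was 201.02-fold lower, with an interval of 184 to 220. Against MEF, Dox (-) was 61.5-fold higher, and over the reads of all exons 80.6-fold, with an interval of 76.2 to 85.4. Dox (+) was 2.64-fold below MEF, which is not past the threshold. The highest exon was exon 3 in Dox (+), with 12 reads, and exon 35 in MEF, with 27 reads. All 7 exons above the threshold in this pair were lower in Dox (+). The first exons had few reads and were higher in Dox (+), such as exon 2 with 16 reads against 0 in MEF.

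**Figure D1:**
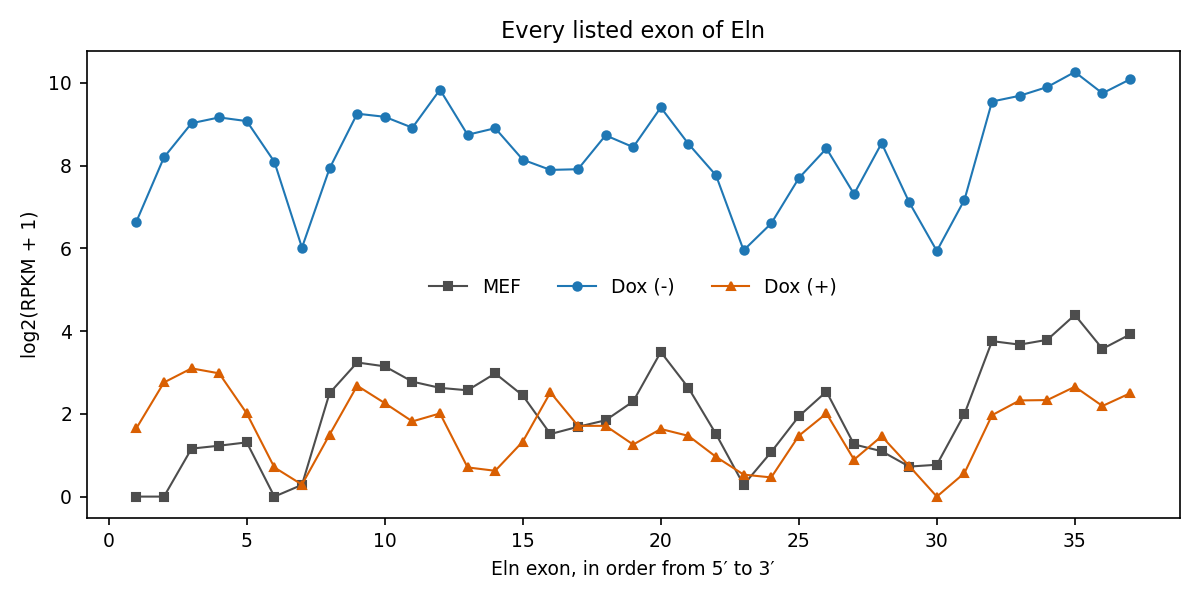
The level of each of the 37 listed Eln exons, in order from 5′ to 3′, as log2(RPKM + 1) in MEF (squares), Dox (-) (circles) and Dox (+) (triangles). The Dox (-) library lies above the other 2 at every exon.

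The difference ran along the whole gene. All 37 Eln exons were above 10 RPKM in Dox (-), all 37 were more than 4-fold lower in Dox (+) and all 37 were more than 4-fold lower in MEF. Exon log2 fold changes from Dox (-) to Dox (+) ranged from -8.28 to -4.99. Summed over exons there were 1224 reads in MEF, 98684 in Dox (-) and 480 in Dox (+), where a read over a junction can count on both exons, so that the intervals on these sums are too narrow. The levels of exons within Dox (-) were uneven. The 8 exons with the elastic repeat had a median of 182 RPKM, the other 9 with the lysine letters 341 RPKM and the remaining 18 fully coding exons 530 RPKM, and their median lengths were 122, 54 and 46.5 bp. Over all genes short exons also had higher RPKM, with a median of 77.3 RPKM in Dox (-) up to 50 bp and 27.1 RPKM above 200 bp. The part of length and of repeated sequence in these differences was not tested.

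The fibrillins build the microfibril, and the 2 genes moved apart. Fbn1, on chromosome 2 and the main fibrillin of adult tissue, stood at 348 RPKM in MEF, 1131 RPKM in Dox (-) and 365 RPKM in Dox (+). The level in Dox (+) was 3.10-fold below Dox (-), with an interval of 2.89 to 3.32. MEF and Dox (+) were close on the highest exon and on exons near it, but not toward the 5′ end. The log2 fold change of Dox (+) against MEF was -0.007 at exon 54 and 1.96 at exon 4. Of the 67 Fbn1 exons above the threshold in that pair, 53 were higher in Dox (+) and 14 lower. Their median log2 fold change was 0.78, with a range of -0.76 to 2.33. Fbn2, on chromosome 18 and best known from embryonic tissue, stood at 200.2 RPKM in MEF, 238 RPKM in Dox (-) and 21.3 RPKM in Dox (+). It was low with Dox. Its highest exon differed between the libraries, and over all exons 63 of the 64 above the threshold were higher in Dox (-) than in MEF, with a median log2 fold change of 0.70. The fall from Dox (-) was 11.2-fold, and on the exon compared it was 11.6-fold with an interval of 8.58 to 16.04. Of the 65 listed Fbn2 exons 64 were above the threshold, and all 64 were more than 4-fold lower in Dox (+) than in Dox (-). Of the 68 Fbn1 exons all were lower, but only 2 by more than 4-fold.

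Both microfibril-associated genes were lower in Dox (+) than in Dox (-). Mfap4, whose protein binds elastin and fibrillin, stood at 17.2 RPKM in MEF, 390 RPKM in Dox (-) and 79.0 RPKM in Dox (+). Besides Eln, it was the only gene of the 10 whose level in Dox (-) exceeded both other libraries by over 4-fold. Its level in Dox (+) was 4.94-fold below Dox (-), with an interval of 4.40 to 5.57, and 4.59-fold above MEF. Mfap5, which codes for MAGP-2 of the microfibril, stood at 396 RPKM in MEF, 720 RPKM in Dox (-) and 188 RPKM in Dox (+). Its level was 3.82-fold lower with Dox, just outside the threshold that Mfap4 passed, and on the same exon in both libraries it was 4.04-fold lower, with an interval of 3.38 to 4.84.

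**Figure D2:**
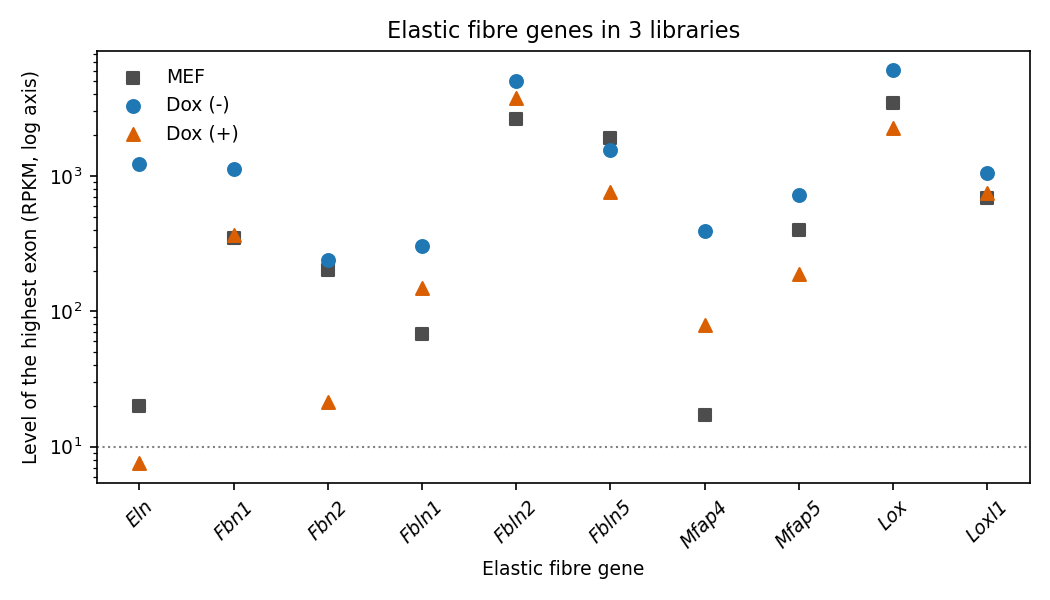
The level of the highest exon of each elastic fibre gene, in RPKM on a log axis, in MEF (squares), Dox (-) (circles) and Dox (+) (triangles), with the 10 RPKM threshold dotted. Eln spans the widest range, from 7.58 to 1230 RPKM, and Fbln5 is the gene whose level was highest in MEF.

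The fibulins bridge elastin and the microfibril, and none of them passed 4-fold from Dox (-) to Dox (+). Fbln5, which binds tropoelastin and is needed for elastic fibres to form, stood at 1914 RPKM in MEF, 1547 RPKM in Dox (-) and 762 RPKM in Dox (+). It was the only gene of the 10 that was not highest in Dox (-), and its level in Dox (+) was 2.03-fold below Dox (-), with an interval of 1.92 to 2.15. Fbln2, which binds elastin and fibrillin, stood at 2642 RPKM in MEF, 5072 RPKM in Dox (-) and 3791 RPKM in Dox (+). It had the smallest change with Dox, 1.34-fold lower, with an interval of 1.31 to 1.36. Fbln1, a basement membrane and elastic fibre fibulin, stood at 68.2 RPKM in MEF, 306 RPKM in Dox (-) and 148 RPKM in Dox (+). It was 4.49-fold higher in Dox (-) than in MEF, with an interval of 3.803 to 5.32, and 2.06-fold lower in Dox (+) than in Dox (-).

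The deposited exons allow the annotated ends of Fbln1 to be compared. A short form ends in an exon of 441 bp (chromosome 15, 85251445 to 85251885), and the long form skips it and goes on with an exon of 143 bp (85263259 to 85263401). The long-form exon stood at 18.03 RPKM in MEF, 147 RPKM in Dox (-) and 56.6 RPKM in Dox (+), and the short-form exon at 11.1, 61.6 and 24.7 RPKM. The ratio of the long-form to the short-form exon was 1.62 in MEF, with an interval of 1.28 to 2.04, 2.39 in Dox (-), with an interval of 2.20 to 2.61, and 2.29 in Dox (+), with an interval of 1.99 to 2.63. The interval of Dox (+) overlapped those of both other libraries, and the interval of MEF lay below that of Dox (-). In Fbln2, exon 18 of 141 bp, printed above, stood at 906 RPKM in MEF, 2666 RPKM in Dox (-) and 1599 RPKM in Dox (+). This was 48.4% of the mean of its neighbours in MEF, 65.7% in Dox (-) and 51.8% in Dox (+). Other Fbln2 exons were low in the same way. In Dox (-), exons 14 and 15 stood at 1603 and 1560 RPKM, between 4027 RPKM at exon 13 and 3170 RPKM at exon 16. Exon 23 stood at 2300 RPKM there, between 3261 and 3721 RPKM.

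The cross-linking enzymes had high levels throughout. Lox stood at 3439 RPKM in MEF, 6027 RPKM in Dox (-) and 2276 RPKM in Dox (+), and Loxl1, which is tied to elastin through Fbln5, at 683, 1055 and 744 RPKM. Dox (-) was highest for both. Lox was 2.65-fold lower in Dox (+) than in Dox (-), with an interval of 2.59 to 2.71, and Loxl1 1.42-fold lower, with an interval of 1.35 to 1.48. The genes are related, and in the 7-exon transcripts compared 5 inner exons had the same length in both, namely 109, 138, 157, 96 and 116 bp. The exon of 96 bp was the highest of each gene in all 3 libraries.

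Counted together, 3 of the 10 genes were more than 4-fold lower in Dox (+) than in Dox (-), namely Eln, Fbn2 and Mfap4, beside 5.41% of all genes tested. None was more than 4-fold higher, beside 1.64%. All 10 log2 fold changes were below 0, with a median of -1.52, and the median over all 13300 genes tested was 0.23. At a 2-fold change 8 were lower, beside 11.1%, and 0 higher, beside 10.8%. From MEF to Dox (-), 3 genes were more than 4-fold higher, namely Eln, Mfap4 and Fbln1, beside 8.26% of all genes. The count more than 4-fold lower was 0, beside 1.21%. The median of the 10 was 0.90, against 0.01 over all genes. At a 2-fold change 4 were higher, beside 17.3%, and 0 lower, beside 7.93%. In Dox (+) against MEF, Mfap4 was more than 4-fold higher, beside 6.56%, and Fbn2 more than 4-fold lower, beside 3.40%. The median of the 10 was -0.26 against 0.27. At a 2-fold change 2 were higher, beside 20.2%, and 4 lower, beside 8.98%. The Mfap4 call was lost with a pseudocount of 5 RPKM and with libraries rescaled to a common median, and the median turned to 0.09 when the median exon of each gene was read. The comparisons share libraries, with each library entering 2 of the 3, so they are not independent. Dox (-) had the highest level of the 3 libraries for 9 of the 10 genes, beside 25.0% of genes above 10 RPKM, and Eln and Mfap4 exceeded both other libraries there by over 4-fold, beside 3.34%.

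**Figure D3:**
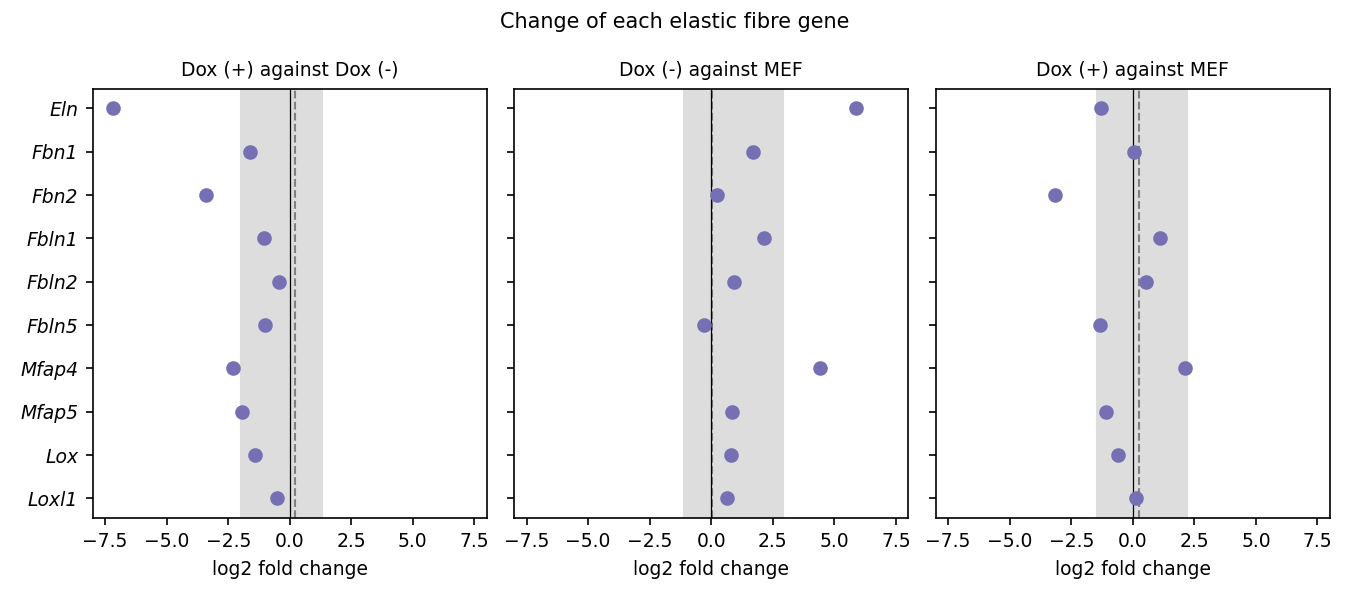
The log2 fold change of each gene in the 3 comparisons. The grey band spans the central 90% of all genes tested, the dashed line is their median, and the points are single comparisons of 1 library with 1 library, with all 10 points left of 0 from Dox (-) to Dox (+).

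Because each gene was measured on several exons, the same was read from the exons. From Dox (-) to Dox (+), 269 of the 272 exons were above the threshold, 256 were lower, 13 were higher, and 119 were more than 4-fold lower, or 44.2% beside 4.94% of all exons. The exons of a gene are not independent, and Eln held 37 and Fbn2 64 of the 119. The 13 higher exons were 12 of Fbln2, most of them at its 5′ end, and the 37 bp first exon of Lox. From MEF to Dox (-), 269 exons were above the threshold. Of these 99 were more than 4-fold higher, or 36.8% beside 9.38%, and 0 more than 4-fold lower, beside 1.00%. Fbn1 held 38 of the 99, Eln 37, Fbln1 15 and Mfap4 9. From MEF to Dox (+), 237 exons were above the threshold. Of these 57 were more than 4-fold lower, or 24.1% beside 3.03%, and 10 more than 4-fold higher, or 4.22% beside 8.79%. Fbn2 held 55 of the 57 and Eln 2, and Mfap4 held 8 of the 10 and Fbn1 2.

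The libraries differed in coverage along transcripts. Over 9381 genes with at least 5 exons of enough reads, the log2 ratio of Dox (+) to Dox (-) at the last exon minus that at the first had a median of -0.48, and it was below 0 in 87.0% of genes. In Fbln2 the ratio went from 0.49 at the first exon to -0.68 at the last, and in Lox from 0.08 to -1.60. In Fbn1 it went from -0.83 to -2.11 and in Fbn2 from -2.73 to -4.00. So the size of the change depended on the exon read, and for Fbln2 and Lox its direction did too. For Lox the other direction rested on the 37 bp first exon alone, with 28 reads in Dox (-) and 29 in Dox (+), and 9 exons were lower. For Eln no exon was above -4.99. Read from the first exon with at least 20 reads in 1 of the libraries, 1 of the 10 genes, Eln, was called lower in Dox (+) than in Dox (-), and read from the last such exon 5 were. The first exon of Fbn2 was also more than 4-fold lower, but at 9.24 RPKM in Dox (-) it was under the 10 RPKM threshold. The comparisons with MEF had the same drift. The last exon minus the first had a median of -0.83 over genes for Dox (+) against MEF, and was below 0 in 90.6%. For Dox (-) against MEF the median was -0.35, and 75.3% were below 0. The part of coverage in the gene-level changes was not tested.

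**Figure D4:**
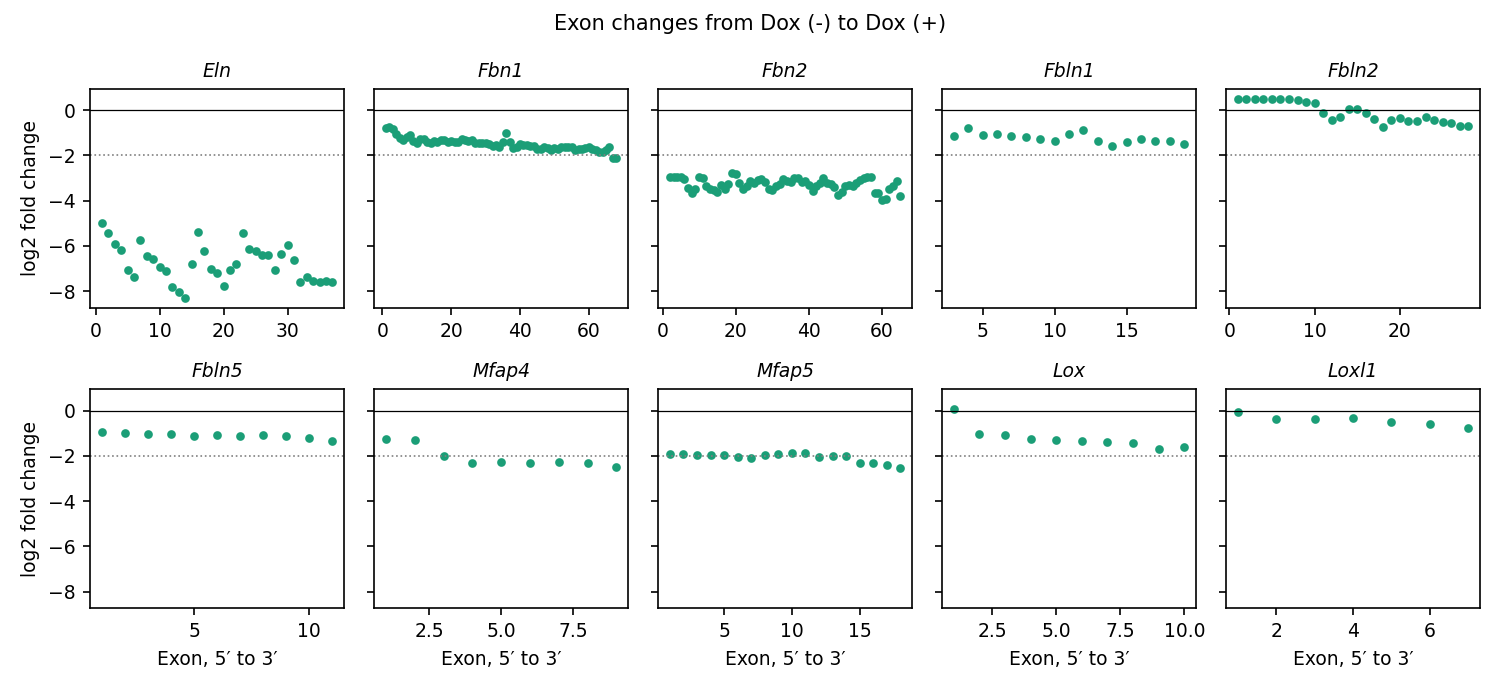
The log2 fold change from Dox (-) to Dox (+) of each exon above 10 RPKM, in order from 5′ to 3′, for each gene, with 0 as a line and 4-fold lower dotted. Values drift down toward the 3′ end in most genes, and Eln and Fbn2 lie below the dotted line throughout.

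Exons that moved more than 2-fold apart from the rest of their gene, with a counting interval of the exon's reads that left out equal change, numbered 6 of 272 from Dox (-) to Dox (+), 20 of 272 from MEF to Dox (-) and 42 of 246 from MEF to Dox (+). They lay at the 5′ side of their genes and were relatively higher in the second library of the pair in 64 of these 68 cases. Fbln1, Fbln5, Mfap5 and Loxl1 had 0 in all 3 comparisons.

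The make-up of the set changed with the libraries. As the length-weighted mean over exons, the 10 genes summed to 3598 RPKM in MEF, 6525 RPKM in Dox (-) and 2909 RPKM in Dox (+). Eln made up 0.200% of the sum in MEF, 8.90% in Dox (-) and 0.0994% in Dox (+). Lox made up 45.1%, 35.1% and 26.4%, and Fbln2 29.6%, 31.3% and 53.8%. Lox was thus the largest part in MEF and Dox (-), and Fbln2 in Dox (+).

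Other genes of elastic fibres and microfibrils were read from a list of 24, of which 20 were above the threshold. From Dox (-) to Dox (+), 3 were more than 4-fold lower and 0 more than 4-fold higher, with a median of -0.46 over the 20. They were Ltbp2, a microfibril protein that went from 1905 to 279 RPKM, the proteoglycan Vcan, from 588 to 122 RPKM, and the microfibril protein gene Thsd4, from 10.7 to 1.996 RPKM. From MEF to Dox (-), 4 were more than 4-fold higher, beside 8.26% of all genes. They were Ltbp2 from 239 RPKM, the proteoglycan Dcn from 30.02 to 1637 RPKM, Emilin2 from 12.9 to 72.2 RPKM and Thsd4 from 0.766 RPKM. Thsd4 rested on few reads, with 1 in MEF, 14 in Dox (-) and 18 in Dox (+) on its highest exon. That exon was not the same in Dox (-) and Dox (+). In Dox (+) against MEF 1 was more than 4-fold higher, Dcn, beside 6.56%, and 1 more than 4-fold lower, Vcan, beside 3.40%. Mfap2, which codes for MAGP-1, stood at 468, 723 and 198 RPKM in MEF, Dox (-) and Dox (+). The fibulin genes Efemp1 and Efemp2 were not lower with Dox, at 480, 858 and 990 RPKM and at 2680, 2707 and 3790 RPKM. Emilin1 stood at 511, 263 and 154 RPKM. The TGF-beta binding proteins Ltbp1, Ltbp3 and Ltbp4 differed by at most 1.18-fold between Dox (-) and Dox (+).

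**Figure D5:**
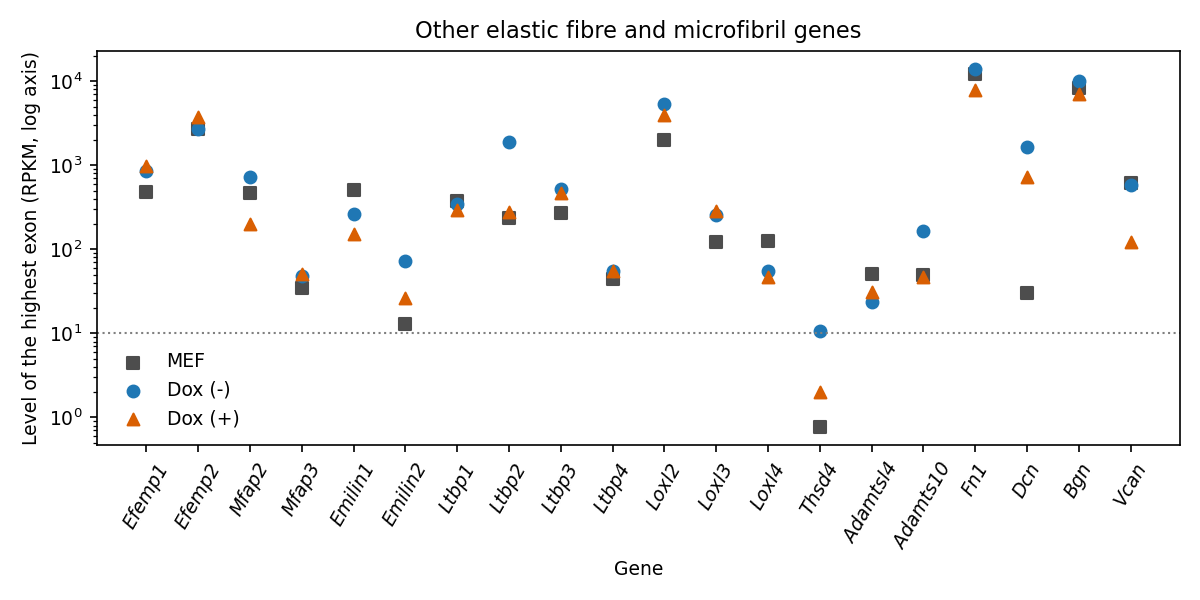
The level of the highest exon of each of the other 20 listed genes above 10 RPKM, in RPKM on a log axis, in MEF (squares), Dox (-) (circles) and Dox (+) (triangles). Dcn and Ltbp2 show the widest spread among the genes above 100 RPKM in any library.

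Of the elastin-degrading proteases, 7 were above the threshold from Dox (-) to Dox (+). Of these, 2 were more than 4-fold lower, beside 5.41% of all genes, and 0 more than 4-fold higher, beside 1.64%. Ctss, a cathepsin of phagocytes, stood at 3.67 RPKM in MEF, 494 RPKM in Dox (-) and 12.6 RPKM in Dox (+), and Mmp9, a gelatinase, at 0.317, 27.1 and 4.81 RPKM. Mmp12, the macrophage elastase, stood at 2.78, 28.4 and 11.4 RPKM. Ctsk, a cathepsin of osteoclasts and fibroblasts, was highest with Dox, at 18.2, 259 and 450.5 RPKM.

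The genes whose pattern was most like that of Eln, by Euclidean distance of log2(RPKM + 1) centred over the 3 libraries, were Naip2, Ifi27l2a, Cd300ld5, Cd300ld3 and Gm8369. The distances were 0.50, 0.52, 0.84, 0.98 and 0.99. Naip2 stood at 37.0, 1489 and 15.2 RPKM in MEF, Dox (-) and Dox (+). The nearest gene of the set was Mfap4, at rank 403.

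Markers of macrophages moved in the same direction as Eln in both comparisons with Dox (-). All 12 macrophage markers were more than 4-fold lower in Dox (+) than in Dox (-), beside 5.41% of all genes. All 12 passed 4-fold upward from MEF to Dox (-), beside 8.26%. Their summed level was 60.4 RPKM in MEF, 18107 RPKM in Dox (-) and 638 RPKM in Dox (+). In no library was a marker of this list at 0, and the most abundant, Lyz2, stood at 27.8, 10820 and 379 RPKM. Fibroblast markers were present in every library, with summed levels of 49875, 64011 and 40353 RPKM. With Dox 4 of 15 were more than 4-fold lower, namely Col1a1, Col1a2, Col3a1 and Lum, beside 5.41% of all genes. The log2 fold change was above 0 for 6 of the 15, and Vim stood at 24417, 12302 and 24344 RPKM and Thy1 at 726, 2014 and 3608 RPKM. Smooth muscle markers, led by Acta2 at 10218, 12721 and 31696 RPKM, summed to 20171, 21998 and 50335 RPKM. With Dox 0 of 8 passed 4-fold. Of the 7 above the threshold, 4 had a log2 fold change above 0 with Dox and 3 below. Against MEF, 2 smooth muscle markers were more than 4-fold higher in both knock-in libraries. These were Myh11 at 1.75, 129 and 108 RPKM and Des at 11.6, 571 and 1805 RPKM. Endothelial markers summed to at most 27.2 RPKM and epithelial markers to at most 61.2 RPKM in any library. Mesothelial markers summed to at most 110.1 RPKM. Of these, Upk3b stood at 1.48, 18.3 and 1.21 RPKM and Msln at 22.2, 56.1 and 20.1 RPKM. Wt1, at 0.517, 31.0 and 31.2 RPKM, was not lower with Dox. Chondrocyte markers summed to 627, 79.3 and 61.0 RPKM. They were led in MEF by Col2a1, at 599, 24.5 and 4.47 RPKM, and in Dox (+) by Comp, at 13.8, 23.9 and 38.2 RPKM. Melanocyte markers summed to 4.43, 14.8 and 264 RPKM, led by Mlana in Dox (+). The part of these markers' cells in the elastic fibre changes was not tested.

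Promoter sequence was at hand for 4 of the 10 genes in the RefSeq table (GRCm38.p6), Fbn1, Fbln1, Fbln2 and Fbln5, with 6 start sites in all. The 250 bases before each start were searched on both strands for CACGTG and CATGTG, E-box letters of the kind that MITF is known to bind. Only Fbln1 held CACGTG, in a stretch shared by the windows of its 2 start sites. In the window shown it begins 81 bases before the transcription start at the window's 3′ end. None held CATGTG. Of all 32851 promoters in the table, 6.02% held CACGTG and 12.3% CATGTG. No binding was measured in these libraries. The Fbln1 window is shown with CACGTG in capitals.
Fbln1 promoter, chr15:85205699-85205948, plus strand: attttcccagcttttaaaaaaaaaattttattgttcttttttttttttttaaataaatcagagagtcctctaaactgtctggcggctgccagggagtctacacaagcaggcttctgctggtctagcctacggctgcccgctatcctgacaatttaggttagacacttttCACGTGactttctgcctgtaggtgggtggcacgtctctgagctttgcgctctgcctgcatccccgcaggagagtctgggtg

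Some exons are shared with other annotated genes, and whether counting used strand is not given in the sources used here. The first exon of Eln overlaps the antisense gene Gm30003, 3 exons of Fbn1 overlap Gm9913, the last exon of Mfap4 overlaps Mapk7 and 2 exons of Lox overlap AC161119.1. None of these was the exon that set the level of its gene in Dox (-).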

How the data were processed

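RNA was sequenced from 1 library per condition, and samples were grouped by their labels. The authors prepared poly(A) libraries with the TruSeq RNA v2 kit, aligned reads to mm10 with TopHat2 2.0.10 and counted reads per Ensembl exon with bedtools, per the methods and processing notes. The deposited values are RPKM per exon, made by the authors from reads on the exon, its length and the aligned reads of the library. By default bedtools counts a read that only touches an exon, and short exons had higher RPKM here. Columns were assigned by name, and 1 column of per-sample values that matched no library was not used.

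Exons were assigned to genes with GENCODE M21, and 6586 of 234718 had no match. Genes of the same symbol were joined. Reads were recovered as RPKM times exon length times a whole-number divisor per library, and 96.7% to 96.9% of low values came out whole within 0.01. The exact 95% intervals and the floor of 3 reads cover counting error only. Calls used RPKM above 10 in 1 library and a 4-fold change with no pseudocount. Letters searched in exons were computed from the named residues with the standard genetic code, as the letters shared by all their codons. The sequence of 1 exon is not reported here. No p-values were computed. The steps were tested on simulated data.

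The genes named are the 10 elastic fibre genes, the other elastic fibre genes and proteases past the threshold, Efemp1, Efemp2, Mfap2, Emilin1 and Ltbp1 to Ltbp4, the 5 genes nearest to Eln, and Mitf and leading markers. These genes and lists were chosen with earlier results of these data known. Alternatives changed the fold (2 and 8), the expression threshold (1 and 30 RPKM or none), the pseudocount (0.1 and 5), the exon read and the scaling. The tools were SciPy 1.17.1, NumPy 2.4.6, pandas 2.3.3 and matplotlib 3.10.9 under Python 3.11.15.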

Additional observations from a re-analysis of the deposited data

How the results depend on the processing

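From Dox (-) to Dox (+), 8 of the 10 genes were lower with a 2-fold threshold. The lower count was 4 in place of 3 with the median exon, the length-weighted mean, the same exon in both libraries or rescaled libraries. Readings from the first or the last exon with at least 20 reads were added after seeing the data. They gave 1 and 5 genes called lower, where the first exon of Fbn2 was lost through the 10 RPKM threshold, and the median log2 fold change was -0.90 from the first exon. From MEF to Dox (+), a 2-fold threshold gave 4 lower and 2 higher genes. The higher count was 0 with an 8-fold threshold, a pseudocount of 5, rescaled libraries or the last exon, and the lower count was 0 from the first exon. The median turned to 0.089 with the median exon and 0.15 with the first exon, and was -0.97 with the last exon. From MEF to Dox (-), counts and medians kept their side under every alternative run. Fbn1, Fbn2, Fbln2, Lox and Loxl1 took the opposite sign under at least 1 alternative in some comparison, and Eln in none. For Dox (+) against MEF, though, the first-exon reading passed over the first Eln exons. These had fewer than 20 reads and were higher in Dox (+). No paired analysis was possible because there was 1 library per condition, so no library could be left out either. Exons with few reads, as for Eln in Dox (+), limit the precision of its fold.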
